A study of Mus musculus with 30 samples.

Results

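The genes described here are 8 receptors and signal transducers through which steroid and pituitary hormones act: Esr1, Prlr, Ghr, Nr3c1, Stat5a, Stat5b, Bcl6 and Socs2. They were chosen by name as regulators of sex-dimorphic kidney expression. Each was found as 1 Ensembl identifier in both count tables, so they are 8 of the 57133 genes counted. Prlr and Ghr encode the receptors for prolactin and growth hormone, which have no enzyme of their own and signal through the kinase JAK2 to the transcription factors STAT5A and STAT5B. Socs2 encodes a feedback inhibitor of the growth hormone receptor that STAT5 itself induces. Bcl6 encodes a zinc-finger repressor that, in mouse liver, occupies many of the DNA sites that STAT5 occupies. Esr1 encodes oestrogen receptor alpha and Nr3c1 the glucocorticoid receptor, both transcription factors activated by their ligands. In mouse and rat liver the pattern of growth hormone release, pulsatile in males and steadier in females, sets much of the difference between the sexes through STAT5B. In the mouse kidney, androgens acting on the proximal tubule are the best known source of such differences.

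The values are counts from poly-A RNA of whole mouse kidney in 30 libraries. TG kidneys carry a transgene that the labels name Gsta2-H2BeGFP (Gsta2 encodes a glutathione S-transferase, and H2B-eGFP is a fluorescent histone). WT kidneys are labelled wildtype. The promoter of the transgene and the age and strain of the mice are not given in the sources used here. The no-surgery groups were TG females, WT females, TG males and WT males (n = 3 each). The other groups were all male. They were TG and WT kidneys with nephrectomy and ischemia-reperfusion injury, taken at 4 hours (IRI, n = 6 each), and TG and WT kidneys with nephrectomy alone (NX, n = 3 each), for which no time is stated. Replicates carry the numbers of their titles, and 0 stands for a title without one. The labels do not say that the libraries of a group came from separate animals, and a p-value therefore reflects only how far these libraries differed, which may be technical. The 12 no-surgery libraries and the 18 NX and IRI libraries stood in separate tables, and no test was made across them.

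Library totals ran from 49040915 to 91354407 counts. EGFP was counted in every TG library (86 to 1294 counts) and had 0 counts in the WT libraries except the one labelled WT IRI replicate 1, which held 206. Levels are given in CPM, counts per 1000000 of the library total after scaling by edgeR's TMM factor. Kidney markers were abundant: 9 proximal tubule genes summed to between 10802 and 19479 CPM in each library. Lymphocyte markers summed to at most 3.71 CPM and adrenal cortex markers to at most 3.80 CPM. Adipoq, an adipocyte marker, passed 20 CPM in WT female replicate 1 (25.6 CPM), TG male replicate 1 (25.1 CPM) and WT NX replicate 0 (35.01 CPM), and without these 3 libraries the numbers of the 8 genes called were the same as with them. In whole kidney, fewer cells of a type and less RNA per cell cannot be told apart.

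STAT5 proteins bind DNA at the palindrome TTCNNNGAA, and the promoter windows of the 8 genes were searched for it. RefSeq windows of 300 bases (250 before to 50 after a transcription start) were used for 6 of the 8 genes, 13 windows in all, and for Nr3c1 and Socs2 there were 0. Their build is GRCm38.p6, not the GRCm39 of the counts. The palindrome, which reads alike on both strands, occurred in 4 of the 13 windows, in Prlr, Esr1 and Bcl6, against 8.3% of all 32851 windows of that length. These 4 windows are printed 5′ to 3′ on the strand of the gene, with the matches in capitals, because they hold a match. Prlr had 3 windows and Esr1 had 2, and their other windows, not printed, held none.
Prlr, chr15:10223656-10223955, plus strand: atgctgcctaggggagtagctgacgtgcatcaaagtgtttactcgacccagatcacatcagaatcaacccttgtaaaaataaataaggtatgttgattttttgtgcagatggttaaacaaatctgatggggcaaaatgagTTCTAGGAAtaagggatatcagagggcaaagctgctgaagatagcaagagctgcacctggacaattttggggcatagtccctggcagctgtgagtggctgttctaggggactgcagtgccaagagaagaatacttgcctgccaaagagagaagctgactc
Esr1, chr10:4709908-4710207, plus strand: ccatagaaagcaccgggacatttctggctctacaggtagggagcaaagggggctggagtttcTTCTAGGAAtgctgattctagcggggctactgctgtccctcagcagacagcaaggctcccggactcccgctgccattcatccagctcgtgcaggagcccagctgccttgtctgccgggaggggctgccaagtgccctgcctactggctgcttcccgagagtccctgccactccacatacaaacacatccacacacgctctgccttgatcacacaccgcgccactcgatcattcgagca
Bcl6, chr16:23981234-23981533, minus strand: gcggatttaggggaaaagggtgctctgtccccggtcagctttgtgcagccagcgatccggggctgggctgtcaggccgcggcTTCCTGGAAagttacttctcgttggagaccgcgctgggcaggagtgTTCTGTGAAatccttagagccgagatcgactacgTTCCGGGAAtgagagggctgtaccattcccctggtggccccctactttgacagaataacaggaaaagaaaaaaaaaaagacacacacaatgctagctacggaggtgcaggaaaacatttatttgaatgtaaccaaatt
Bcl6, chr16:23988803-23989102, minus strand: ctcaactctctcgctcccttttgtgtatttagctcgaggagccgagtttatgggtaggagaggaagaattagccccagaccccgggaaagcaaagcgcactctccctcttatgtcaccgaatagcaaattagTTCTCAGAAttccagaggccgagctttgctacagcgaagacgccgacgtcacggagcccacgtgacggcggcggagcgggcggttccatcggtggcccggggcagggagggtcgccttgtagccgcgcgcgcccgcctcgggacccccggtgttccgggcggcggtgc
The Prlr and Esr1 windows hold the same letters, TTCTAGGAA, at -110 and -188 from the start. The first Bcl6 window holds 3 matches, at -168, -122 and -88, and the other holds 1, at -118. The full palindromes of the oestrogen response element, in 0.07% of all windows, and of the glucocorticoid response element, in 0.475%, occurred in 0 of the 13. The hexamer AGGTCA, an arm of the oestrogen response element, searched on both strands and present in 16.3% of all windows, occurred in both Stat5a windows and in 1 of the 2 Stat5b windows. A match of letters is not a binding site, and binding was not measured.

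Compared per kilobase of exon, Ghr was the most abundant of the 8 genes, with a median of 88.4 CPM per kb over the 30 libraries. Nr3c1 followed at 14.3 CPM per kb and Stat5b at 8.67 CPM per kb. The medians of Bcl6, Stat5a and Socs2 were 5.54, 3.19 and 1.51 CPM per kb. Esr1, at 1.10 CPM per kb, and Prlr, at 0.542 CPM per kb, had the lowest medians of the 8, yet Prlr spanned 0.131 to 21.2 CPM per kb. The lowest count of any of these genes in a library was 128, for Prlr, and all 8 passed the filter on low counts in every comparison.

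By group mean, Prlr ran in the order TG females, WT females, WT males, TG NX, TG males, WT NX, TG IRI and WT IRI, and the libraries of neighbours did not overlap at the first 2 steps and between TG males and WT NX. Ghr was highest in TG NX and WT males and lowest in TG IRI and WT IRI kidneys, and its only step without overlap lay between TG males and TG IRI kidneys, although WT females reached down to 709 CPM, under the highest TG IRI library. Esr1 was highest in WT males, WT NX, TG NX and TG males, then in TG females, and lowest in WT females, TG IRI and WT IRI kidneys. For Nr3c1, Bcl6, Stat5a, Stat5b and Socs2, all neighbours in this order overlapped. These orders set levels of 2 tables side by side, scaled separately, and are descriptions with no test.

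**Figure D1:**
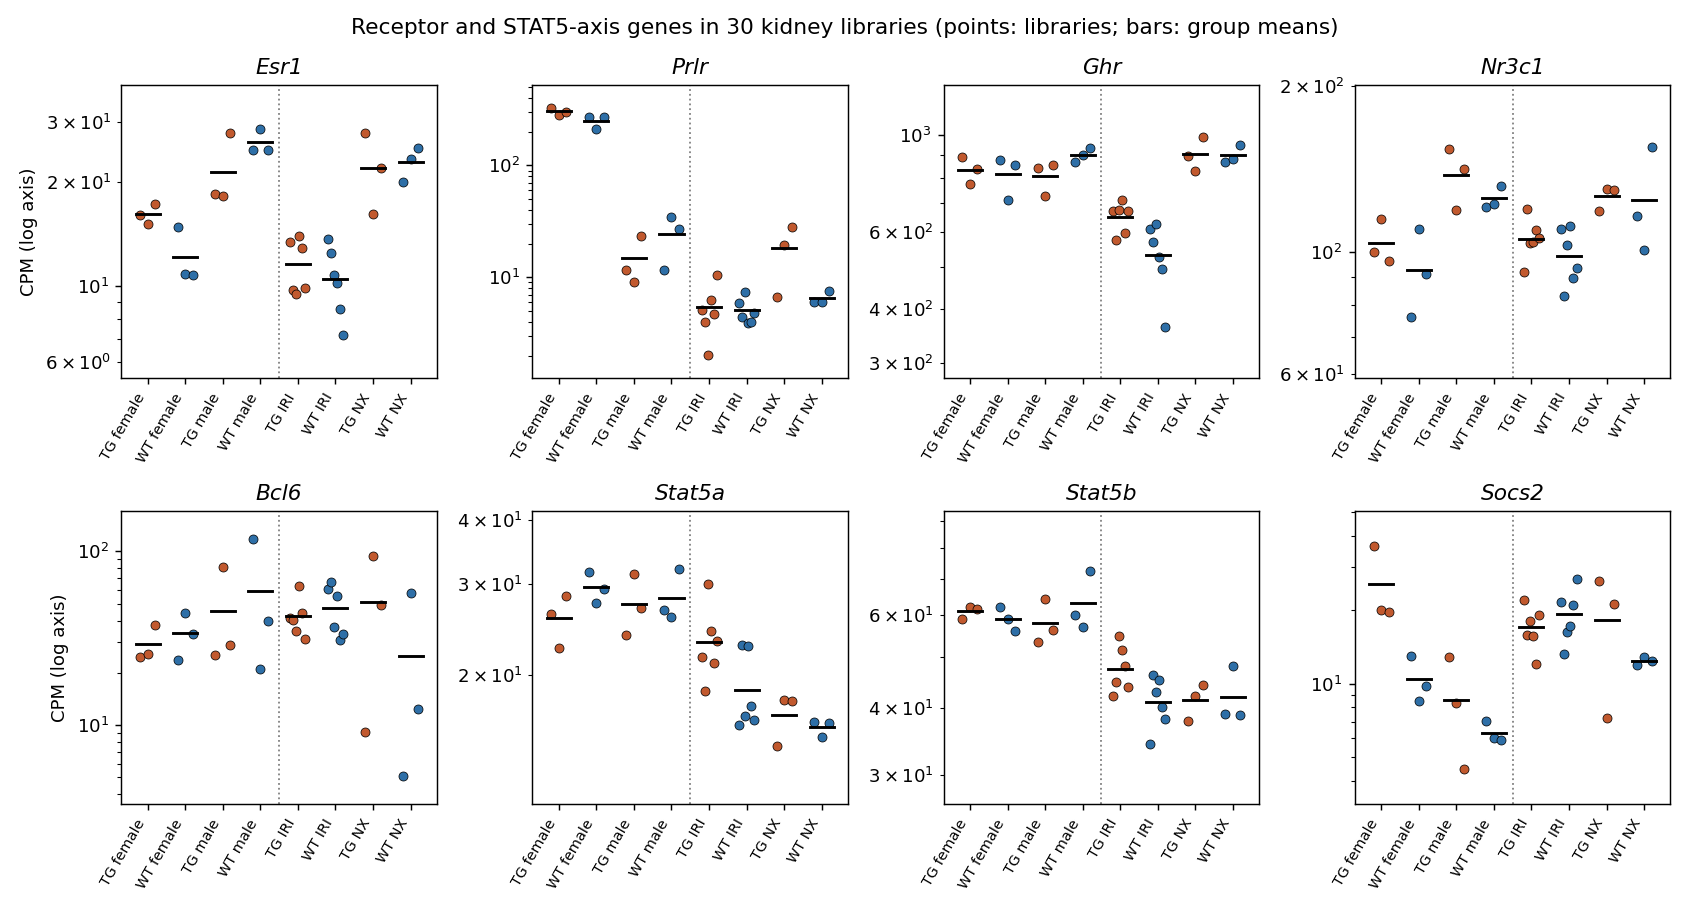
Levels of the 8 genes in each library, in CPM on a log axis, by group. Points are libraries, bars are group means, and the dotted line parts the no-surgery libraries (left) from the NX and IRI libraries (right), which come from separate tables. Prlr lies between 211 and 325 CPM in females and between 2.01 and 34.8 CPM in all male groups, and Ghr lies at 364 to 712 CPM after IRI and at 828 to 993 CPM after NX.

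Between the sexes, Prlr was higher and Nr3c1 lower in females in both genotypes. Socs2 was also higher in TG females, and Esr1 also lower in WT females. Hence 3 of the 8 genes passed the test in each genotype (edgeR quasi-likelihood test with Benjamini-Hochberg adjustment over all genes, adjusted p under 0.05). Of the 8, 2 were higher and 1 lower in TG females than in TG males, where 9.87% of all 19126 genes were higher and 11.3% lower. In WT kidneys 1 was higher and 2 were lower in females, where 10.1% of all genes were higher and 11.3% lower.

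After IRI, Esr1 and Ghr were lower than after NX in both genotypes. Prlr was also lower and Stat5a higher in TG kidneys, and Nr3c1 was also lower in WT kidneys. In TG kidneys 1 of the 8 genes was higher and 3 were lower after IRI, where 16.4% of all 19264 genes were higher and 13% lower. In WT kidneys 0 of the 8 were higher and 3 lower, where 16.8% of all genes were higher and 14.1% lower. Over all genes, 3152 were higher and 2509 lower in TG, and 3229 higher and 2723 lower in WT kidneys. With upper-quartile scaling, which put the median of all genes at -0.14 in TG and -0.096 in WT kidneys, 2488 were higher and 4280 lower in TG, and 2790 higher and 3931 lower in WT kidneys.

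No gene of the 8 passed the test between TG and WT kidneys in any of 4 comparisons. Without surgery, 0.00523% of all genes were called in males and 0.0418% in females. The shares were 0.0117% after NX and 0.0701% after IRI. These few calls depended on single libraries: the 8 genes called in females became 1 to 22 with a library left out (22 without WT female replicate 1), the 2 after NX became 2 to 15 (15 without WT NX replicate 0) and the 12 after IRI became 0 to 109 (109 without WT IRI replicate 3). At an unadjusted p under 0.05, 0 of the 8 differed in no-surgery males, 2 in females, 1 after NX and 3 after IRI, where 5.22%, 9.09%, 6.77% and 14.1% of all genes did, and DESeq2 and limma-voom also called 0 of the 8 in each. The 3 after IRI were Ghr, Stat5a (0.31 ± 0.13 on the log2 scale, adjusted p = 0.305) and Stat5b (0.21 ± 0.09, adjusted p = 0.313), all higher in TG kidneys. In no-surgery males, Prlr differed by -0.73 ± 0.36 (adjusted p = 0.916).

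**Figure D2:**
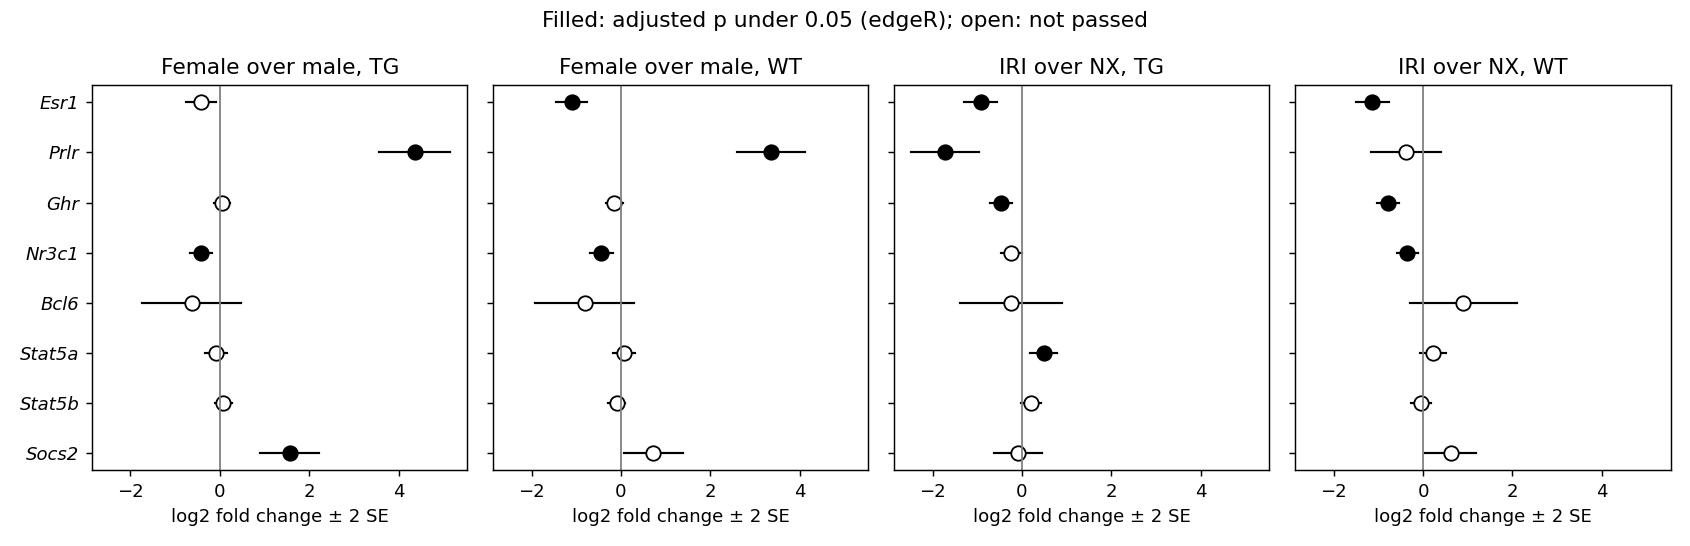
Differences of the 8 genes as log2 fold change from edgeR, females over males in TG and WT kidneys and IRI over NX in TG and WT kidneys. Points are estimates, lines are 2 SE to each side, and filled points passed the test (adjusted p under 0.05). Prlr stands at 4.36 in TG and 3.36 in WT kidneys between the sexes, and Bcl6 has the longest lines in each panel.

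Prlr (ENSMUSG00000005268, GRCm39 chromosome 15, 10177324 to 10349266, plus strand) separated the sexes more widely than the other 7. It stood at 325, 285 and 301 CPM in TG females and at 271, 211 and 273 CPM in WT females. In males it stood at 11.7, 9.10 and 23.4 CPM in TG and at 11.7, 34.8 and 27.1 CPM in WT kidneys. Every female library was above every male library. The difference was 4.36 ± 0.40 on the log2 scale in TG kidneys (SE, edgeR adjusted p = 1.1e-05), which is 20.5-fold. It was 3.36 ± 0.38 in WT kidneys (adjusted p = 5.09e-05), or 10.3-fold. The sex by genotype interaction was 1.003 ± 0.495 (adjusted p = 0.608), and in that interaction 0.00523% of all genes were called and 0 of the 8.

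In the operated males Prlr differed between IRI and NX in TG kidneys. After IRI it ran from 2.01 over a median of 4.91 to 10.6 CPM in TG kidneys and from 3.92 over 4.63 to 7.33 CPM in WT kidneys. After NX it stood at 6.68, 19.3 and 28.3 CPM in TG and at 5.997, 5.99 and 7.54 CPM in WT kidneys. The TG NX libraries thus differed 4.23-fold among themselves, and replicate 0 lay in the range of the WT NX libraries. IRI kidneys were lower than NX kidneys by -1.72 ± 0.38 on the log2 scale in TG (adjusted p = 0.00172). The difference in WT was -0.38 ± 0.39 (adjusted p = 0.505), and the interaction of genotype with injury was -1.34 ± 0.56 (adjusted p = 0.471). That interaction had 0% of 19264 genes called by edgeR, 0 of the 8 genes among them, with 1848 genes at an unadjusted p under 0.05 and with 37 called by DESeq2 and 0 by limma-voom. TG NX exceeded WT NX by 1.45 ± 0.42 (adjusted p = 0.73). That difference passed the test without TG NX replicate 0 (1.85, adjusted p = 0.036). Prlr shares 203 exon bases with Gm21973 on the same strand, which had 0 counts in all libraries.

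Ghr (ENSMUSG00000055737, chromosome 15, 3347242 to 3612974, minus strand) was close in both sexes. It stood at 893, 772 and 839 CPM in TG females and at 879, 709 and 857 CPM in WT females. In males it stood at 843, 726 and 854 CPM in TG and at 871, 900.3 and 936 CPM in WT kidneys. The libraries of both sexes overlapped in both genotypes. The difference of females from males was 0.05 on the log2 scale in TG kidneys (from -0.14 to 0.23 within 2 SE, adjusted p = 0.785; -0.025 without TG male replicate 1) and -0.15 in WT kidneys (from -0.33 to 0.04, adjusted p = 0.303).

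The receptor gene fell after IRI. Ghr ran from 575 over a median of 669.9 to 712 CPM in TG IRI kidneys and from 364 over 548 to 624.7 CPM in WT IRI kidneys. NX kidneys had levels of 898, 828 and 993 CPM in TG and of 870.4, 881 and 951 CPM in WT kidneys. Every IRI library lay below every NX library. The difference was -0.47 ± 0.12 in TG (adjusted p = 0.00668) and -0.78 ± 0.12 in WT kidneys (adjusted p = 7.52e-05), so levels were 1.38-fold and 1.72-fold lower. Without TG NX replicate 2 the TG difference was -0.40 and no longer passed (adjusted p = 0.0508). The genotype by injury interaction was 0.31 ± 0.18 (adjusted p = 0.599). Between the genotypes after IRI, TG exceeded WT by 0.29 ± 0.11 (adjusted p = 0.281), and by 0.31 without WT IRI replicate 1, the library with EGFP counts (adjusted p = 0.279).

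Some proximal tubule markers were lower after IRI too. Of 9 such genes 0 were higher and 3 lower in TG kidneys, where 13% of all genes were lower, and 0 were higher and 4 lower in WT kidneys, where 14.1% were. Their summed levels overlapped between IRI and NX kidneys in both genotypes. The summed level was 11347 to 13329 CPM in TG IRI and 11548 to 13904 CPM in WT IRI kidneys, against 13249 to 16110 CPM in TG NX and 12669 to 19479 CPM in WT NX kidneys. All 5 neutrophil markers were higher after IRI in both genotypes, where 16.4% (TG) and 16.8% (WT) of all genes were. Their sums were 5.43 to 40.7 CPM in TG IRI and 23.4 to 89.6 CPM in WT IRI kidneys, and at most 0.909 CPM in any NX kidney. Only 1 of the 5 passed the filter on low counts among NX libraries alone, so most entered the test through the IRI libraries. Red cell markers were higher too, 4 of 5 in TG and 5 of 5 in WT kidneys. The part of these markers in the lower levels of Ghr, Esr1, Prlr and Nr3c1 was not tested.

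Esr1 (ENSMUSG00000019768, chromosome 10, 4561593 to 4955614, plus strand) was the lower of the 2 steroid receptor genes. It stood at 16.04, 15.2 and 17.3 CPM in TG females and at 14.9, 10.9 and 10.8 CPM in WT females. In males it stood at 18.5, 18.3 and 27.8 CPM in TG and at 24.9, 28.7 and 24.8 CPM in WT kidneys. The sexes did not overlap in either genotype, but only the WT difference passed. It was -1.10 ± 0.17 in WT (adjusted p = 5.31e-04), or 2.15-fold lower in females, and -0.41 ± 0.17 in TG kidneys (adjusted p = 0.101). The interaction of 0.69 ± 0.24 did not pass (adjusted p = 0.471), so the genotypes were not shown to differ in the sex difference. In the TG kidneys limma-voom with sample weights called it (adjusted p = 0.0423).

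After IRI, Esr1 ran from 9.48 over a median of 11.4 to 14.01 CPM in TG and from 7.22 over 10.5 to 13.7 CPM in WT kidneys. NX kidneys held 27.8, 16.2 and 21.99 CPM in TG and 20.1, 23.3 and 25.3 CPM in WT kidneys. IRI and NX libraries did not overlap in either genotype. Levels were 1.89-fold lower in TG (-0.92 ± 0.19, adjusted p = 0.000849) and 2.20-fold lower in WT kidneys (-1.14 ± 0.18, adjusted p = 1.09e-04). Over the alternatives tried, the change stayed between -1.10 and -0.72 in TG and between -1.23 and -1.05 in WT kidneys, always past the threshold. Without WT IRI replicate 1, the library with EGFP counts, the WT changes were -1.20 for Esr1 and -0.80 for Ghr, both past it.

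Nr3c1 (ENSMUSG00000024431, chromosome 18, 39543598 to 39652474, minus strand) was lower in females by a small amount. It stood at 100.004, 115 and 96.0 CPM in TG females and at 76.2, 110.2 and 91.0 CPM in WT females. In males it stood at 154, 119 and 142 CPM in TG and at 121, 122 and 132 CPM in WT kidneys. Each female library was below each male library of its genotype. The difference was -0.42 ± 0.12 in TG (adjusted p = 0.0311) and -0.44 ± 0.12 in WT kidneys (adjusted p = 0.0251), or 1.34-fold and 1.35-fold lower. Both calls lay near the threshold, and most single omissions lost them while the difference stayed between -0.51 and -0.34 in TG and between -0.57 and -0.32 in WT kidneys. The TG call was lost without TG male replicate 0 (adjusted p = 0.119) or 2 (0.0828) and without TG female replicate 0 (0.0843) or 2 (0.107). The WT call was lost without WT female replicate 0 (adjusted p = 0.0775) or 2 (0.0647) and without WT male replicate 0 (0.0509), 1 (0.0516) or 2 (0.0745).

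The glucocorticoid receptor gene ran after IRI from 91.8 over a median of 105 to 119.5 CPM in TG and from 83.1 over 98.1 to 111 CPM in WT kidneys. After NX it stood at 118.8, 130.02 and 129.7 CPM in TG and at 116, 100.6 and 155 CPM in WT kidneys. The groups overlapped in both genotypes. The difference was -0.35 ± 0.12 in WT (adjusted p = 0.0282) and -0.24 ± 0.12 in TG kidneys (adjusted p = 0.132). The WT call was lost without WT NX replicate 2, the highest library (-0.15, adjusted p = 0.388), and without WT IRI replicate 1 (adjusted p = 0.0571) or 4 (0.0598). It was also lost when only the groups compared entered the fit (0.0795), in which setting the TG difference passed (0.0264).

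Stat5a and Stat5b lie side by side on chromosome 11 (Stat5a, ENSMUSG00000004043, 100750177 to 100775995, plus strand, and Stat5b, ENSMUSG00000020919, 100671557 to 100741550, minus strand). Their transcripts share 175 stretches of 150 bases, 2.21% of those in Stat5a and 3.16% of those in Stat5b, so most reads of this length can be told apart. Stat5a stood at 26.2, 22.6 and 28.4 CPM in TG females, 31.7, 27.6 and 29.4 CPM in WT females, 23.9, 31.4 and 27.0 CPM in TG males and 26.7, 25.9 and 32.1 CPM in WT males. Stat5b stood at 59.0, 62.2 and 61.7 CPM in TG females, 62.004, 59.0 and 56.0 CPM in WT females, 53.3, 64.1 and 56.0 CPM in TG males and 59.9, 56.9 and 72.6 CPM in WT males. The sexes overlapped for both genes in both genotypes. The differences of females from males in Stat5b were 0.07 in TG (from -0.11 to 0.26 within 2 SE, adjusted p = 0.644) and -0.10 in WT kidneys (from -0.29 to 0.09, adjusted p = 0.519), and without WT male replicate 2 the WT value was 0.014. For Stat5a they were -0.09 in TG (adjusted p = 0.652; 0.016 without TG male replicate 1 and 0.002 without TG female replicate 1) and 0.07 in WT kidneys (adjusted p = 0.755).

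After IRI, Stat5a ran from 18.6 over a median of 22.4 to 30.01 CPM in TG and from 15.97 over 16.996 to 22.8 CPM in WT kidneys. Its NX levels were 14.5, 17.8 and 17.8 CPM in TG and 16.2, 15.1 and 16.1 CPM in WT kidneys. In TG kidneys all IRI libraries were above all NX libraries. There Stat5a was 1.40-fold higher (0.48 ± 0.15, adjusted p = 0.0196), but not without TG NX replicate 0 (0.39, adjusted p = 0.116) and not with upper-quartile scaling (0.34, adjusted p = 0.0649). In WT kidneys the difference was 0.22 ± 0.15 (adjusted p = 0.284). Stat5a shares 72 exon bases with Stat3, which lies on the minus strand and was at 229 ± 16.1 CPM in TG IRI and 64.8 ± 7.43 CPM in TG NX kidneys (SD, n = 6 and n = 3), and whether reads were counted by strand is not stated. The part of Stat3 reads in the Stat5a difference was not tested. Stat5b averaged 47.5 ± 4.82 CPM in TG IRI and 41.4 ± 3.21 CPM in TG NX kidneys, a difference of 0.21 ± 0.11 that did not pass (adjusted p = 0.17). It averaged 41.2 ± 4.54 CPM in WT IRI and 41.97 ± 5.24 CPM in WT NX kidneys (-0.05 on the log2 scale, adjusted p = 0.791; 0.076 without WT NX replicate 1 and 0.0037 without WT IRI replicate 0).

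Socs2 (ENSMUSG00000020027, chromosome 10, 95221224 to 95253042, minus strand) had its highest group mean in TG females. It stood at 36.5, 19.98 and 19.6 CPM in TG females and at 12.99, 8.53 and 9.78 CPM in WT females. In males it stood at 12.9, 8.33 and 4.47 CPM in TG and at 7.02, 6.02 and 5.86 CPM in WT kidneys. Females lay above males in both genotypes without overlap. The difference was 1.57 ± 0.33 in TG kidneys (adjusted p = 0.00486), or 2.96-fold. In WT kidneys it was 0.73 ± 0.33 (adjusted p = 0.144), and passed where only the groups compared entered the fit (adjusted p = 0.0239) or no count filter was used (0.0405). The interaction was 0.84 ± 0.46 (adjusted p = 0.64). TG females exceeded WT females by 1.28 ± 0.33 on the log2 scale, with no overlap, but the difference did not pass (adjusted p = 0.218). It passed with no count filter (adjusted p = 0.00542) and with the replicate number as a block (1.24, adjusted p = 0.0406).

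After IRI, Socs2 ran from 12.05 over a median of 16.9 to 21.9 CPM in TG and from 13.2 over 18.96 to 26.8 CPM in WT kidneys. After NX it stood at 26.3, 7.26 and 21.2 CPM in TG and at 11.9, 12.8 and 12.4 CPM in WT kidneys. All WT IRI libraries were above all WT NX libraries, whereas the TG NX libraries spanned the TG IRI range. The difference was 0.62 ± 0.28 in WT (adjusted p = 0.105) and -0.09 ± 0.27 in TG kidneys (adjusted p = 0.852), where it was 0.27 without TG NX replicate 0 and 0.03 without replicate 2. In WT it passed where only the groups compared entered the fit (adjusted p = 0.0344).

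Bcl6 (ENSMUSG00000022508, chromosome 16, 23783802 to 23807602, minus strand) spread widely between libraries of 1 group, above all in males without surgery and after NX. It stood at 24.8, 25.5 and 37.7 CPM in TG females and at 23.6, 44.1 and 33.4 CPM in WT females. In males it stood at 25.2, 81.6 and 28.9 CPM in TG and at 117, 21.04 and 39.7 CPM in WT kidneys. One male library of each genotype therefore lay far above the other two. After NX it stood at 9.13, 94.2 and 49.3 CPM in TG and at 5.12, 57.5 and 12.3 CPM in WT kidneys. The highest NX library exceeded the lowest 10.3-fold in TG and 11.2-fold in WT, with counts that never fell below 338. After IRI the spread was narrower, from 31.2 over a median of 40.9 to 63.4 CPM in TG and from 31.1 over 45.9 to 66.9 CPM in WT kidneys.

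No comparison of Bcl6 passed. Females differed from males by -0.63 ± 0.55 in TG (from -1.73 to 0.48 within 2 SE, adjusted p = 0.478) and by -0.81 ± 0.55 in WT kidneys (from -1.92 to 0.29, adjusted p = 0.34). IRI differed from NX by -0.25 ± 0.57 in TG (adjusted p = 0.794; 0.56 without TG NX replicate 1) and by 0.90 ± 0.60 in WT kidneys (adjusted p = 0.274). Without WT NX replicate 1, the highest of its group, the WT difference was 2.44 and passed (adjusted p = 0.00734). The sign between the sexes also rested on single libraries, being 0.12 without TG male replicate 1 and 0.15 without WT male replicate 0. The library highest in Bcl6, WT male replicate 0, had 0.653 CPM of Adipoq, and the lowest, WT NX replicate 0, had 35.01 CPM. TG male replicate 1 and WT female replicate 1, each the highest of its group in Bcl6, had 25.1 and 25.6 CPM of Adipoq. The part of adipocytes in the spread of Bcl6 was not tested.

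**Figure D3:**
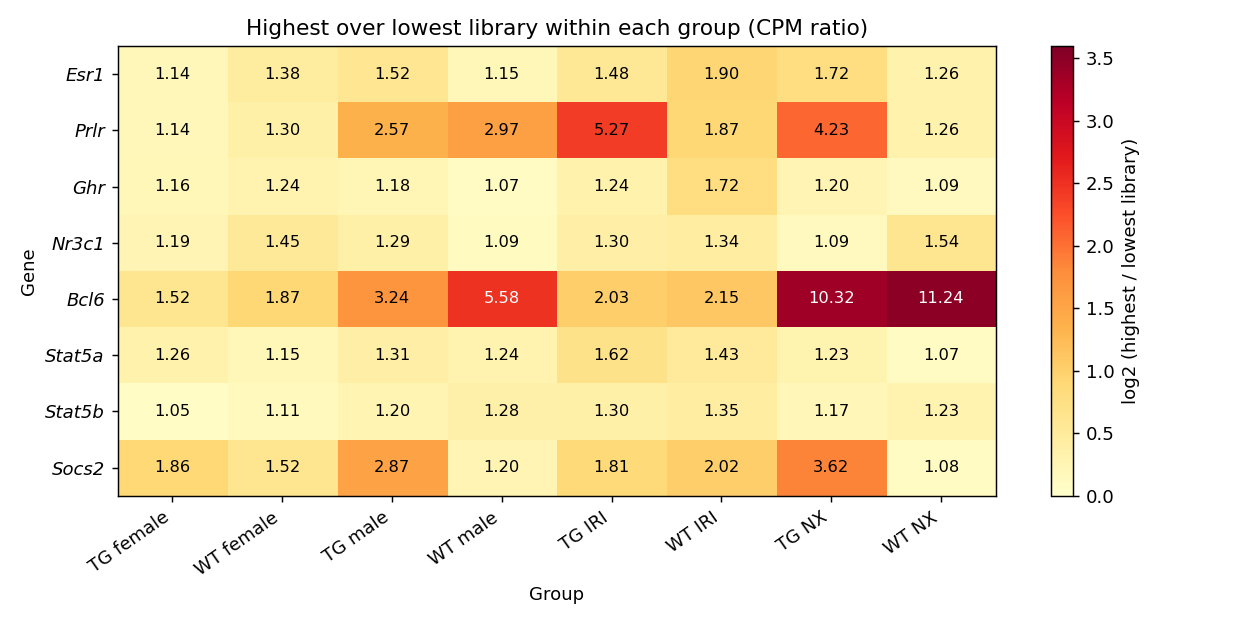
Highest over lowest library within each group, as a ratio of CPM, for the 8 genes (rows) in the 8 groups (columns). Colour gives the log2 of the ratio and the printed numbers the ratio itself. Bcl6 in TG NX and WT NX kidneys holds the 2 widest spreads, 10.32 and 11.24, followed by Bcl6 in WT males, 5.58, and Prlr in TG IRI kidneys, 5.27.

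With each library centred on its group mean, Bcl6 ran opposite to Cish, a cytokine-inducible inhibitor that STAT5 induces, and Socs2 ran with it. Socs2 did not follow Cish in every group: it stayed at 5.86 to 7.02 CPM in WT males and 11.9 to 12.8 CPM in WT NX kidneys. In NX kidneys the TG libraries with 9.13, 94.2 and 49.3 CPM of Bcl6 had 47.6, 6.73 and 18.9 CPM of Cish. The WT NX libraries with 5.12, 57.5 and 12.3 CPM of Bcl6 had 26.5, 15.6 and 38.4 CPM of Cish. In TG males without surgery, 25.2, 81.6 and 28.9 CPM of Bcl6 stood beside 38.5, 8.07 and 7.68 CPM of Cish. In WT males, 117, 21.04 and 39.7 CPM stood beside 6.24, 29.7 and 11.5 CPM. The library highest in Bcl6 was the lowest in Cish in 3 of these 4 groups, TG males being the exception by a narrow margin. Over all 30 libraries, each centred on its group mean in log2(CPM + 0.5), Pearson's r between Bcl6 and Cish was -0.771 (p = 0.00154, adjusted p = 0.0199) and Spearman's rho was -0.765 (p = 0.00041, adjusted p = 0.00828; 100000 permutations within groups, two-sided). Without the 2 libraries farthest from the median of Bcl6, r was -0.695. It was -0.766 in the no-surgery libraries alone (permutation p = 0.0821, adjusted p = 0.422) and -0.808 in the NX and IRI libraries alone (p = 0.00911, adjusted p = 0.082). Leaving out any 1 library kept r between -0.842 and -0.694. Cish was chosen after its values had been seen, and the adjustment covers only 36 pairs. These p-values are therefore no independent test of the pattern.

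Of the 36 pairs formed by the 8 genes and Cish, 4 passed after adjustment over the 36. Socs2 and Cish gave r = 0.682 (p = 0.00166, adjusted p = 0.0199) and rho = 0.628 (p = 0.00077, adjusted p = 0.00924), with r = 0.477 without the 2 libraries farthest in Socs2. Stat5a and Stat5b gave r = 0.689 (p = 0.00018, adjusted p = 0.00648) and rho = 0.668 (p = 0.00046, adjusted p = 0.00828), with r = 0.588 without the 2 farthest in Stat5a. Esr1 and Ghr gave r = 0.628 (p = 0.00287, adjusted p = 0.0258) and rho = 0.577 (p = 0.00741, adjusted p = 0.0534), with r = 0.485 without the 2 farthest in Esr1. This pair was the least stable, losing its call in 9 recomputations and keeping it in 25. Stat5a with Stat5b lost it in 2, and each pair with Cish in 3. Without the libraries with over 20 CPM of Adipoq, Esr1 and Ghr gave r = 0.5999 (permutation p = 0.00698, adjusted p = 0.0628). Bcl6 and Socs2 themselves gave r = -0.360 (permutation p = 0.223, adjusted p = 0.668). In the no-surgery libraries alone, r was 0.518 for Socs2 with Cish (permutation p = 0.257, adjusted p = 0.853), 0.745 for Stat5a with Stat5b (p = 0.0301, adjusted p = 0.318) and 0.502 for Esr1 with Ghr (p = 0.162, adjusted p = 0.729). In the NX and IRI libraries alone these were 0.822 (permutation p = 0.00065, adjusted p = 0.0234), 0.669 (p = 0.00534, adjusted p = 0.082) and 0.666 (p = 0.00884, adjusted p = 0.082), so within a single table only Socs2 with Cish passed after adjustment. The comparison of pairs, with the choice of Cish for it, was added after the values had been seen, and the libraries of a table share their scaling.

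**Figure D4:**
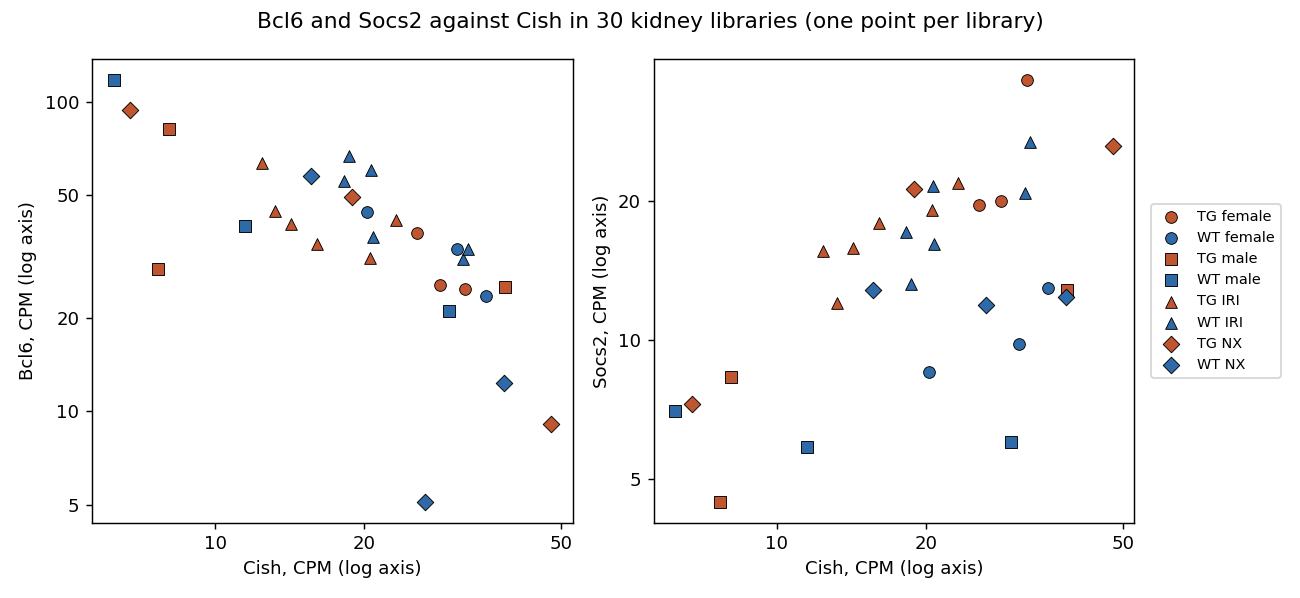
Bcl6 (left) and Socs2 (right) against Cish in each of the 30 libraries, in CPM on log axes, with colour for genotype (TG or WT) and shape for sex, IRI or NX. Bcl6 tends to descend as Cish ascends, from 117 CPM at 6.24 CPM of Cish to 9.13 CPM at 47.6 CPM of Cish. The lowest Bcl6 library, WT NX replicate 0 with 5.12 CPM, stands at 26.5 CPM of Cish. TG male replicate 2 holds 28.9 CPM of Bcl6 at 7.68 CPM of Cish. Socs2 tends to ascend with Cish, though not within WT males or WT NX kidneys.

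The genes most like each of the 8 in their profile over the 30 libraries were found among 13490 genes by the root mean square (RMS) difference of log2(CPM + 0.5), centred within each table. Ghr, whose own RMS about its centre was 0.293, was nearest to Slc3a1 (0.108), Gpm6a (0.125) and Cyp2j11 (0.127). Prlr (own RMS 1.42) was nearest to Slc7a12 (0.578), Rdh16f2 (0.670) and Myh1 (0.685). Esr1 (0.505) was nearest to Nudt12 (0.226), St8sia1 (0.237) and Zfp369 (0.243). Nr3c1 (0.237) was nearest to Zfp148 (0.117), Trim37 (0.128) and Slc39a10 (0.133). Socs2 (0.615) was nearest to Adamts8 (0.449), Umod (0.451) and Mir99ahg (0.455), and Bcl6 (0.905) to Slc16a6 (0.731), Ypel2 (0.733) and Net1 (0.744). Stat5a (0.2305) and Stat5b (0.143) had nearest neighbours at 0.143 (Zfp710) and 0.114 (Rab3gap1). Slc3a1, the nearest to Ghr, encodes an amino acid transporter subunit of the proximal tubule.

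The rest of the hormone pathways was read from 7 lists of genes. Over all genes tested, 9.87% were higher and 11.3% lower in TG females than in TG males. In WT females 10.1% were higher and 11.3% lower. In the growth hormone and prolactin signalling list, 4 of 18 genes were higher and 5 lower in TG females than in TG males, and 6 were higher and 4 lower in WT females. The list's median log2 difference was -0.04 in TG and 0.02 in WT kidneys, beside medians over all genes of 0.02 and 0.03. Jak2, the kinase of both receptors, averaged 63.9 ± 3.14 CPM in TG females and 46.4 ± 2.48 CPM in TG males (n = 3 each, adjusted p = 0.000446). It averaged 60.2 ± 1.37 CPM in WT females and 47.1 ± 2.98 CPM in WT males (adjusted p = 0.00247). Sh2b1, an adaptor that binds JAK2, was also higher in females of both genotypes, and Sos1, a RAS exchange factor, was lower in both. Of 9 tested STAT5 target genes, 1 was higher in TG and 3 were higher in WT females, and 0 were lower. Among them Cux2, a female-biased repressor in mouse liver, was at 5.12 ± 0.368 CPM in TG females and 2.90 ± 0.0582 CPM in TG males. Cish averaged 28.6 ± 3.20 CPM in TG females and 18.1 ± 17.7 CPM in TG males and did not pass (adjusted p = 0.488).

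In the IGF axis, through which growth hormone acts on many tissues, 2 of 9 genes were higher and 2 lower in TG females, and 1 was higher and 3 lower in WT females. Beside these counts, 9.87% of all genes were higher and 11.3% lower in TG females, and 10.1% and 11.3% in WT females. The list's median was -0.21 in TG and 0.03 in WT kidneys. Igfals, which stabilises circulating IGF complexes, averaged 37.3 ± 11.96 CPM in TG females and 13.05 ± 4.62 CPM in TG males (adjusted p = 0.00285), and 34.9 ± 5.53 CPM in WT females and 8.84 ± 2.85 CPM in WT males (adjusted p = 0.00049). The receptor genes Igf1r and Igf2r were lower in females of both genotypes. Igf1 itself did not pass in either genotype (adjusted p = 0.988 in TG and 0.772 in WT kidneys).

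Among 8 other steroid receptors, 3 were higher in TG and 1 was higher in WT females, and 0 were lower. Of all genes, 9.87% were higher and 11.3% lower in TG females, and 10.1% higher and 11.3% lower in WT females. The list's median was 0.36 in TG and 0.11 in WT kidneys. Esrrb, an orphan receptor related to the oestrogen receptors, averaged 93.0 ± 4.52 CPM in TG females and 45.5 ± 6.05 CPM in TG males (adjusted p = 0.00197). It was also higher in WT females (120.2 ± 23.997 CPM, against 64.96 ± 18.5 CPM in WT males, adjusted p = 0.00468). Of 10 coregulators and chaperones of steroid receptors, 0 were higher and 2 lower in TG females, and 1 was higher and 2 were lower in WT females, with medians of -0.11 and -0.13. The corepressor Ncor1 and the coactivator Ncoa2 were the lower ones in both genotypes.

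Among steroid-converting enzymes, lower genes outnumbered higher ones in females. Of 14 tested, 2 were higher and 5 lower in TG females, and 2 were higher and 6 lower in WT females. The list medians were -0.14 and -0.20. Of all genes, 9.87% were higher and 11.3% lower in TG females, and 10.1% higher and 11.3% lower in WT females. Cyp7b1, a steroid 7-alpha-hydroxylase, averaged 3.41 ± 0.396 CPM in TG females and 202 ± 34.7 CPM in TG males (adjusted p = 6.55e-09), and 3.34 ± 0.835 CPM in WT females and 294 ± 57.6 CPM in WT males (adjusted p = 3.25e-09). Hsd17b11 and Hsd17b2 were lower in females of both genotypes. Of the enzymes that set the ligand of the glucocorticoid receptor, Hsd11b2, which inactivates corticosterone in the distal nephron, was higher in females. It averaged 249 ± 26.5 CPM in TG females and 147 ± 4.16 CPM in TG males (adjusted p = 4.15e-05), and 275 ± 14.7 CPM in WT females and 143 ± 9.98 CPM in WT males (adjusted p = 6.71e-06). Hsd11b1, which regenerates corticosterone, was lower, at 31.3 ± 1.74 CPM in TG females and 124 ± 25.3 CPM in TG males (adjusted p = 0.000158) and at 39.06 ± 17.5 CPM in WT females and 114 ± 6.28 CPM in WT males (adjusted p = 0.000753).

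Of 15 tested glucocorticoid-induced genes, 4 were higher and 1 lower in TG females, and 4 were higher and 2 lower in WT females. The list medians were 0.22 and 0.64. Among all genes 9.87% were higher and 11.3% lower in TG females, and 10.1% higher and 11.3% lower in WT females. Mt1, a metallothionein, averaged 113 ± 8.91 CPM in TG females and 78.5 ± 5.26 CPM in TG males (adjusted p = 0.00165) and also passed in WT kidneys. Fkbp5, a chaperone of the glucocorticoid receptor that the receptor induces, averaged 212 ± 78.4 CPM in TG females and 121 ± 15.6 CPM in TG males (adjusted p = 0.0344), and 321 ± 84.7 CPM in WT females and 183 ± 28.6 CPM in WT males (adjusted p = 0.034). Errfi1, an inhibitor of the EGF receptor, was lower in females of both genotypes. Distal markers moved the same way as Hsd11b2: all 4 distal convoluted tubule markers and 4 of 5 thick ascending limb markers were higher in females of both genotypes. So were collecting duct markers (4 of 6 in TG and 6 of 6 in WT females) and podocyte markers (4 of 5 in both). The sums were 2060 to 2121 CPM in TG females and 2086 to 2231 CPM in WT females, against 1186 to 1321 CPM in TG males and 897 to 1173 CPM in WT males, for the distal convoluted tubule. Of 9 proximal tubule markers, 3 were higher and 4 lower in TG females, and 1 was higher and 4 were lower in WT females. Their part in the differences between the sexes was not tested.

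After IRI the growth hormone and prolactin list moved mostly upward. Of all 19264 genes, 16.4% were higher and 13% lower in TG kidneys, and 16.8% were higher and 14.1% lower in WT kidneys. In the growth hormone and prolactin list 12 of 18 genes were higher and 3 lower in TG IRI than in TG NX kidneys, and 10 were higher and 3 lower in WT. The list's median was 0.48 in TG and 0.30 in WT kidneys, beside -0.01 over all genes in both. Stat3, a transcription factor of the same family that many cytokines activate, was at 229 ± 16.1 CPM in TG IRI and 64.8 ± 7.43 CPM in TG NX kidneys (adjusted p = 3.52e-09). It was at 208 ± 33.9 CPM in WT IRI and 60.2 ± 3.82 CPM in WT NX kidneys (adjusted p = 4.81e-09). Jak2 averaged 65.1 ± 5.39 CPM in TG IRI and 37.9 ± 2.41 CPM in TG NX kidneys (adjusted p = 0.000216). The phosphatase gene Ptpn2 and the adaptor gene Sh2b3 were higher in both genotypes.

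After IRI, 16.4% of all genes were higher in TG and 16.8% in WT kidneys, and 13% and 14.1% were lower. Among STAT5 target genes 6 of 9 were higher and 1 lower in both genotypes. Their list medians were 1.70 in TG and 1.67 in WT kidneys. These genes also answer to other transcription factors, and the part of STAT5 or of others in their levels was not tested. Socs3, a feedback inhibitor that STAT3 also induces, was at 31.2 ± 3.51 CPM in TG IRI and 0.927 ± 0.146 CPM in TG NX kidneys (adjusted p = 8.99e-12), and at 36.9 ± 10.1 CPM in WT IRI and 1.04 ± 0.101 CPM in WT NX kidneys (adjusted p = 5.95e-12). Myc and Mcl1 were higher in both genotypes. Cish, named after its values were seen, averaged 16.6 ± 4.34 CPM in TG IRI and 24.4 ± 20.998 CPM in TG NX kidneys. It did not pass (adjusted p = 0.319). It averaged 23.7 ± 6.55 CPM in WT IRI and 26.8 ± 11.4 CPM in WT NX kidneys (adjusted p = 0.748).

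After IRI, 16.4% of all genes were higher and 13% lower in TG kidneys, and 16.8% were higher and 14.1% lower in WT kidneys. Of the 8 other steroid receptors 0 were higher and 3 lower in TG kidneys, and 0 were higher and 1 lower in WT kidneys, with list medians of -0.49 and -0.18. Nr3c2, the mineralocorticoid receptor, was lower in TG kidneys (10.9 ± 1.46 CPM after IRI, against 16.7 ± 1.97 CPM after NX, adjusted p = 0.00747). In the IGF axis 0 of 9 genes were higher and 3 lower in TG kidneys, and 1 was higher and 3 were lower in WT kidneys, with medians of -0.05 and -0.29. Igf1 averaged 3.31 ± 0.763 CPM in TG IRI and 7.78 ± 1.33 CPM in TG NX kidneys (adjusted p = 0.00498), and 6.23 ± 3.16 CPM in WT IRI and 5.76 ± 0.880 CPM in WT NX kidneys (adjusted p = 0.869).

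Of the steroid-converting enzymes, 15 were tested after IRI. In TG kidneys 1 was higher and 0 were lower, where 16.4% of all genes were higher and 13% lower. In WT kidneys 1 was higher and 7 were lower, where 16.8% of all genes were higher and 14.1% lower. The list medians were -0.14 in TG and -0.30 in WT kidneys. The enzyme gene higher in both genotypes, the oestrogen sulphotransferase gene Sult1e1, was at 0.427 ± 0.202 CPM in TG IRI and 0.315 ± 0.295 CPM in WT IRI kidneys. It was at 0 in all NX libraries, so it entered the test only through the IRI libraries and could only be called higher. Cyp7b1 averaged 69.3 ± 31.8 CPM in WT IRI and 232 ± 36.4 CPM in WT NX kidneys (adjusted p = 0.00165). Whether the genotypes differ in this list was tested gene by gene in the genotype by injury interaction, where 0 of its genes passed. As 0% of all 19264 genes passed there, this count says nothing particular to the list. The list's median in the interaction was 0.42, beside 0.0003 over all genes.

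Glucocorticoid-induced genes were mostly higher after IRI, and a minority of the coregulators and chaperones were. Among all genes 16.4% were higher and 13% lower in TG kidneys, and 16.8% were higher and 14.1% lower in WT kidneys. Of the 10 coregulators and chaperones 4 were higher and 1 lower in TG kidneys, and 3 were higher and 1 lower in WT kidneys, with list medians of 0.15 and 0.09. Hsp90aa1, the inducible heat shock protein that holds steroid receptors ready for their ligand, averaged 1970.1 ± 653 CPM in TG IRI and 579 ± 109 CPM in TG NX kidneys (adjusted p = 2.67e-05). It averaged 2306 ± 510 CPM in WT IRI and 492.8 ± 123 CPM in WT NX kidneys (adjusted p = 3.2e-06). Among the 15 tested glucocorticoid-induced genes 10 were higher and 1 lower in TG kidneys, and 11 were higher and 1 lower in WT kidneys, with list medians of 1.75 and 2.14. Cebpd, Mt1 and Nfkbia, which inflammatory signals also induce, were among them. Per1, a clock gene that glucocorticoids induce, averaged 149.8 ± 27.6 CPM in TG IRI and 45.0 ± 14.2 CPM in TG NX kidneys (adjusted p = 3.26e-05). Fkbp5 averaged 266 ± 51.7 CPM in TG IRI and 176 ± 58.7 CPM in TG NX kidneys. In WT kidneys it averaged 209 ± 79.8 CPM after IRI and 169 ± 50.9 CPM after NX, and libraries overlapped in both genotypes. Tsc22d3, another direct target of the glucocorticoid receptor, averaged 72.5 ± 9.92 CPM in TG IRI and 68.7 ± 5.10 CPM in TG NX kidneys (adjusted p = 0.746). It averaged 83.0 ± 13.2 CPM in WT IRI and 67.8 ± 23.2 CPM in WT NX kidneys (adjusted p = 0.24). The part of glucocorticoids in these levels was not tested. Between TG and WT kidneys, and in both interactions, 0 genes of the 7 lists passed the edgeR test. At most 0.0701% of all genes passed in any of these comparisons.

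**Figure D5:**
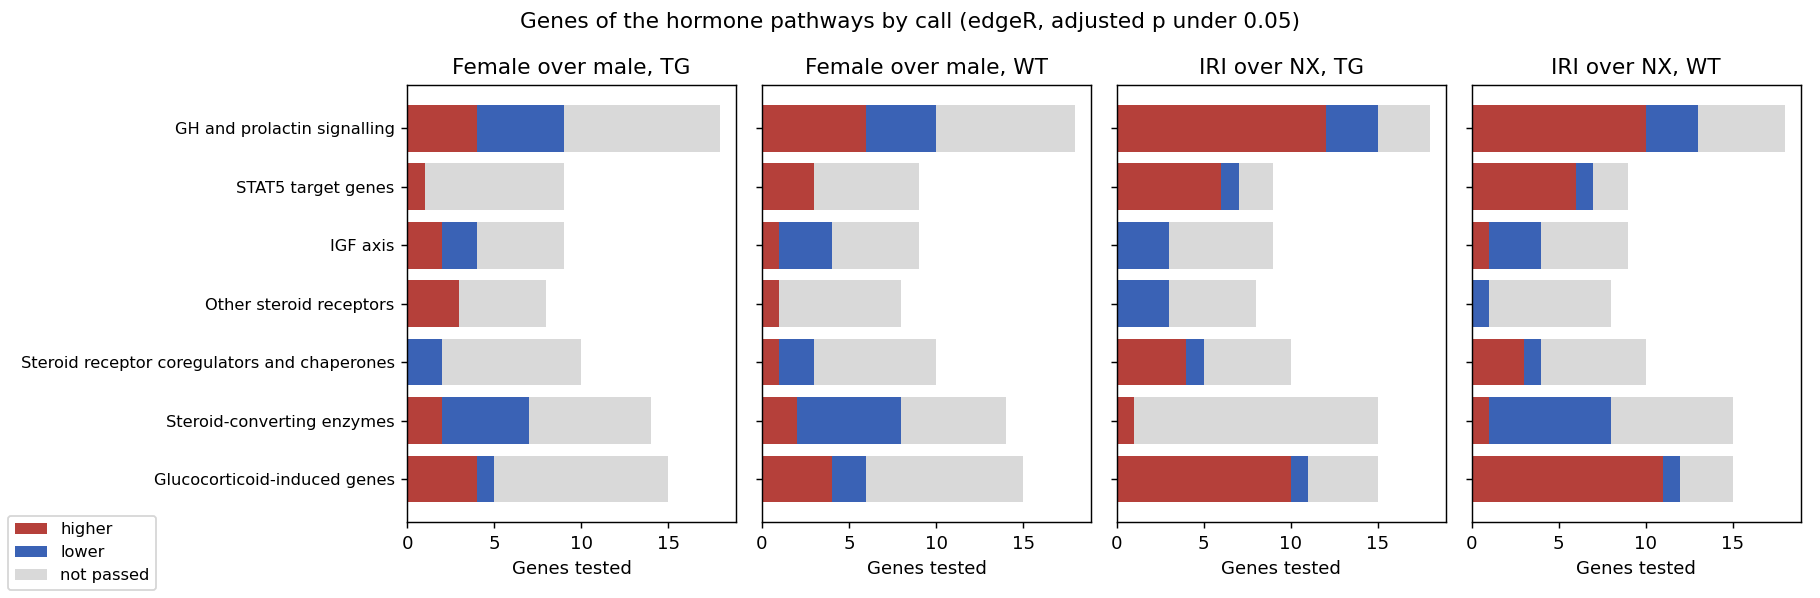
Genes of the 7 hormone pathway lists by the result of the edgeR test, as counts of genes tested: higher, lower or not passed (adjusted p under 0.05), for females over males in TG and WT kidneys and IRI over NX in TG and WT kidneys. Glucocorticoid-induced genes were higher after IRI in 10 of 15 (TG) and 11 of 15 (WT), where 16.4% and 16.8% of all genes were higher. Of 14 steroid-converting enzymes 5 were lower in TG females and 6 in WT females, where 11.3% of all genes were lower in each.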

How the data were processed

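Poly-A libraries from whole kidneys of mice were read in pairs of 150 bases. The authors deposited raw counts per gene in 2 tables, which carry Ensembl identifiers per the file headers. Reads were trimmed with fastp 0.23.2, aligned with STAR 2.7.0 to GRCm39 (mm39) and counted with featureCounts 2.0.3, per the submitters' processing notes. The counting options are not given in the sources used here. With low counts left aside, between 37.3% and 41.9% of the counts of a library were odd. Most of these counts were thus even, and halved counts were tried as an alternative.

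From the counts, symbols were matched for 51881 of 57133 genes (90.8%). Genes were filtered with filterByExpr, scaled by TMM and tested with edgeR 4.0.16 (quasi-likelihood, R 4.3.3), with the 4 groups of a table in 1 fit, except that TG and WT kidneys after NX, and likewise after IRI, were fitted on those 2 groups alone. P-values were adjusted by Benjamini-Hochberg over all genes, with a threshold of 0.05. DESeq2 1.42.0, limma-voom 3.58.1, other scalings, no filter, halved counts, a replicate block and leaving out each library were the alternatives. Library totals of 49040915 to 91354407 set the precision, and the lowest count of the 8 genes was 128. The procedure was tested on simulated data.

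The 8 genes, the lists and the tests were chosen with earlier results of these data known. All 8 genes were named, with up to 4 called genes of each list with the smallest p per comparison and the 3 nearest genes of each member among those with a symbol and a mean of at least 1 CPM. A gene that this rule names is not reported here. Jak2 after IRI, Hsd11b1, Fkbp5, Per1, Tsc22d3 and Cish were named after their values were seen. Promoter windows are RefSeq's, on GRCm38.p6. Pairs of genes were correlated over 30 libraries with 100000 permutations within groups.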

Additional observations from a re-analysis of the deposited data

How the results depend on the processing

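Of 1392 recomputed differences of the 8 genes, 1314 kept their direction and their side of the threshold, 12 gained a call, 17 lost one and 49 turned in sign. None of the 49, which fell in 20 of the differences, passed with either sign. With single libraries left out, Bcl6 ran from -0.75 to 0.56 in TG IRI against NX, from -0.92 to 0.12 in TG and from -1.22 to 0.15 in WT between the sexes, from -0.42 to 0.035 between TG and WT females, from -1.13 to 0.58 between TG and WT males, and from -0.78 to 0.93 in the sex by genotype interaction. Stat5a ran from -0.18 to 0.016 between the sexes in TG and from -0.15 to 0.0596 between TG and WT males. Stat5b ran from -0.17 to 0.014 between the sexes in WT, from -0.087 to 0.076 in WT IRI against NX and from -0.099 to 0.063 between TG and WT after NX. Ghr ran from -0.025 to 0.11 between the sexes in TG, from -0.063 to 0.099 between TG and WT females and from -0.085 to 0.045 between TG and WT after NX. Nr3c1 ran from -0.13 to 0.19 between TG and WT after NX, from -0.089 to 0.16 in the sex by genotype and from -0.098 to 0.22 in the genotype by injury interaction. Esr1 ran from -0.28 to 0.099 between TG and WT after NX, Prlr from -0.20 to 0.27 between TG and WT after IRI and Socs2 from -0.47 to 0.27 in TG IRI against NX. With limma-voom, Bcl6 in TG IRI against NX was 0.59, Ghr between TG and WT females -0.0090 and Prlr between TG and WT after IRI -0.048. Nr3c1 between TG and WT after NX was -4.2e-05, and 0.0019 with halved counts, 0.0098 with upper-quartile factors and 0.0059 with no filter. Without the libraries with over 20 CPM of Adipoq, an alternative chosen after the data were seen, Bcl6 was 0.13 between the sexes in TG and 0.037 between TG and WT females, Ghr was -0.013 and -0.061, and Stat5a between the sexes in TG was 0.028.

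The number of the 8 genes called differed from the main one in 25 of 174 recomputed counts, and by more than 1.5 times in 4. Between TG and WT females it was 1 (Socs2) with no count filter and 1 with the replicate block. Between TG NX and WT NX it was 1 (Prlr) with no count filter (adjusted p = 0.00326) and 1 without TG NX replicate 0. The cause was not tested.

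The labels tie no replicate numbers together, and by the rule that every pair correlate over 0.1 the numbers did not pair the libraries. Same-numbered deviations passed 0.1 in 8 of 18 pairs without surgery, among them all 6 of replicate 0 (0.133 to 0.265), in 2 of 21 among NX and IRI libraries and in 2 of 3 among NX libraries alone. With the replicate block, Nr3c1 after IRI in WT lost its call (adjusted p = 0.0697), Socs2 between the sexes in WT (adjusted p = 0.0264) and between TG and WT females (adjusted p = 0.0406) passed, and uncalled differences turned to 0.23 (Bcl6, TG IRI against NX), 0.021 (Nr3c1, TG against WT after NX) and -0.0022 (Prlr, TG against WT after IRI).

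Counts over all genes in the genotype comparisons depended on the tool. TG against WT females gave 8 with edgeR, 213 with DESeq2, 73 with limma-voom, 107 with no filter, 40 with the replicate block, 14 with halved counts and 19 with upper-quartile factors. After IRI it gave 12 with edgeR, 346 with DESeq2, 43 with no filter and 5 with the block, and after NX 2, 46, 127 and 1. In males it gave 1 with edgeR, 14 with DESeq2, 0 with limma-voom and 15 with no filter. The sex by genotype interaction gave 1 with edgeR, 80 with DESeq2, 37 with no filter and 11 with the block, and the genotype by injury interaction 0 with edgeR and 37 with DESeq2. Within-table correlations and those without single libraries kept their sign, but the 4 called pairs lost their calls in 2 to 9 recomputations each.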
